A study of Mus musculus with 13 samples.

Results

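A set of 9 developmental regulators of the urogenital ridge mesenchyme were followed in the stromal clone UG26-1B6: Tcf21, Wt1, Gata4, Gata6, Osr1, Tbx18, Meis1, Twist1 and Nr2f2. The 9 genes were listed by name, not by a threshold on their values, and stand beside 12215 genes that could be tested on the array. They are covered by 21 probe sets that the platform annotation assigns to that gene alone, and each gene is represented by the probe set with the highest mean over the 13 arrays. Of these, 8 passed a filter on low values, which asked for a log2 value above 2.38, the median of the whole table, on at least 2 arrays. Tcf21 did not pass and has no test.

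UG26-1B6 is 1 stromal clone derived from the urogenital ridge of a midgestation mouse embryo, so all arrays describe a single line. The day 0 group (n = 3) was stroma taken by trypsin before any co-culture, and the medium group (n = 2) was stroma harvested 24 h after its medium was renewed. The other groups were stroma harvested after 1 day (n = 3), 2 days (n = 3) or 3 days (n = 2) with LSK cells, the Lin- Sca-1+ c-Kit+ bone marrow fraction that is rich in blood stem and progenitor cells. Stroma for co-culture had received 30 Gy before LSK cells were added, and cultures stayed at 33 °C. The sources used here do not say whether day 0 and medium cells were irradiated, or whether LSK cells were removed before RNA isolation. The titles describe biological replicates and the design text technical ones. Each p-value therefore reflects no more than the spread among these arrays, which may be technical.

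The urogenital ridge is the strip of intermediate mesoderm and overlying coelomic epithelium from which kidney, gonad and adrenal cortex arise. Osr1 marks early intermediate mesoderm, Wt1 and Gata4 are needed for the gonadal ridge, Tbx18 marks mesenchyme around the ureter, and Tcf21 acts in kidney and gonad mesenchyme. Gata6, Meis1, Twist1 and Nr2f2 are used more widely in embryonic mesenchyme, and Meis1 also acts in blood stem cells.

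Stretches of 250 bases before an annotated transcription start were found for 5 of the genes (Nr2f2, Tbx18, Tcf21, Meis1 and Twist1) in RefSeq, build GRCm38.p6. That of Tbx18 (chr9:87731261-87731510, minus strand) is shown because this factor had the lower co-culture values described further on. The start listed for Meis1 lies inside the annotated gene, so its stretch is not shown. Capitals mark matches to CCAAT, the box bound by NF-Y, and to CANNTG, the E-box bound by basic helix-loop-helix factors such as Twist1 and Tcf21, on either strand.
Tbx18: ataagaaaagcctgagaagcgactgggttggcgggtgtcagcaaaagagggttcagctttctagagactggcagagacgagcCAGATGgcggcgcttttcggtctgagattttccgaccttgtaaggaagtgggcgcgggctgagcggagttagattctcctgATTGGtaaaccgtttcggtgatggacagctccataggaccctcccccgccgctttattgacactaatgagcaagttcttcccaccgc
The Tbx18 stretch held 1 match to CCAAT and 1 to CANNTG, which do not overlap. It held neither TGACAG, the core recognised by Meis1, nor GATAA, a core recognised by GATA factors. CCAAT occurred in 33.8% of all 32851 upstream stretches of this length in the table, CANNTG in 66.2%, TGACAG in 15.9% and GATAA in 22.6%.

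None of the 8 tested factors passed an adjusted p of 0.05 in any of the 5 comparisons (limma, Benjamini-Hochberg over 12215 genes). The share of all genes that passed was 0.327% for medium against day 0, 2.15% for day 1 of co-culture against day 0, 2.25% for day 2, 0.819% for day 3 and 5.21% for day 1 of co-culture against medium, so counts of 0 among 8 genes lie near the background. At an unadjusted p below 0.05 the factors numbered 2 (both higher), 2, 3, 2 and 3 (all lower), against 1153, 2109, 3208, 1684 and 2554 of all genes. The median log2 change of the 8 factors was 0.09 in medium, -0.05 at day 1, -0.20 at day 2 and -0.34 at day 3 against day 0, where that of all genes was 0, 0, -0.29 and 0. Against medium, the median at day 1 of co-culture was -0.54, and that of all genes was 0. These counts and medians include Gata4, which passed the filter only through co-culture arrays, and Wt1, which stayed close to the filter. They therefore rest in part on values near the lower end of the scale, and the medians are not read as a result. All 4 comparisons with day 0 share its 3 arrays, and both day 1 co-culture comparisons share theirs.

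Array 1 of day 2 stood apart: its highest correlation with any other array was 0.785, and its Gapdh 3′ probe sets read 8.96 log2 units above the 5′ ones, against 2.15 to 5.79 on the other arrays. Without it, 11863 genes were tested and the number passing in the 5 comparisons became 159, 1300, 291, 940 and 2129. Meis1 then passed as lower at day 1 (-1.61 ± 0.26, adjusted p = 0.00967), day 2 (-1.40 ± 0.29, adjusted p = 0.046) and day 3 (-1.37 ± 0.29, adjusted p = 0.027) against day 0, and at day 1 against medium (-1.0 ± 0.29, adjusted p = 0.0443), by limma. Tbx18 passed as lower (-2.13 ± 0.58, adjusted p = 0.0389) and Nr2f2 as higher (2.13 ± 0.53, adjusted p = 0.0286) at day 1 of co-culture against medium. Each change is given in log2 units with its standard error. Other probe sets of Meis1 and Nr2f2, read as values only, did not all share these signs at day 1 against medium. A second Meis1 probe set differed by 1.61, and further Nr2f2 probe sets by -1.28, -1.08 and 0.43. Array 1 of day 2 was singled out after its values had been seen.

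**Figure D1:**
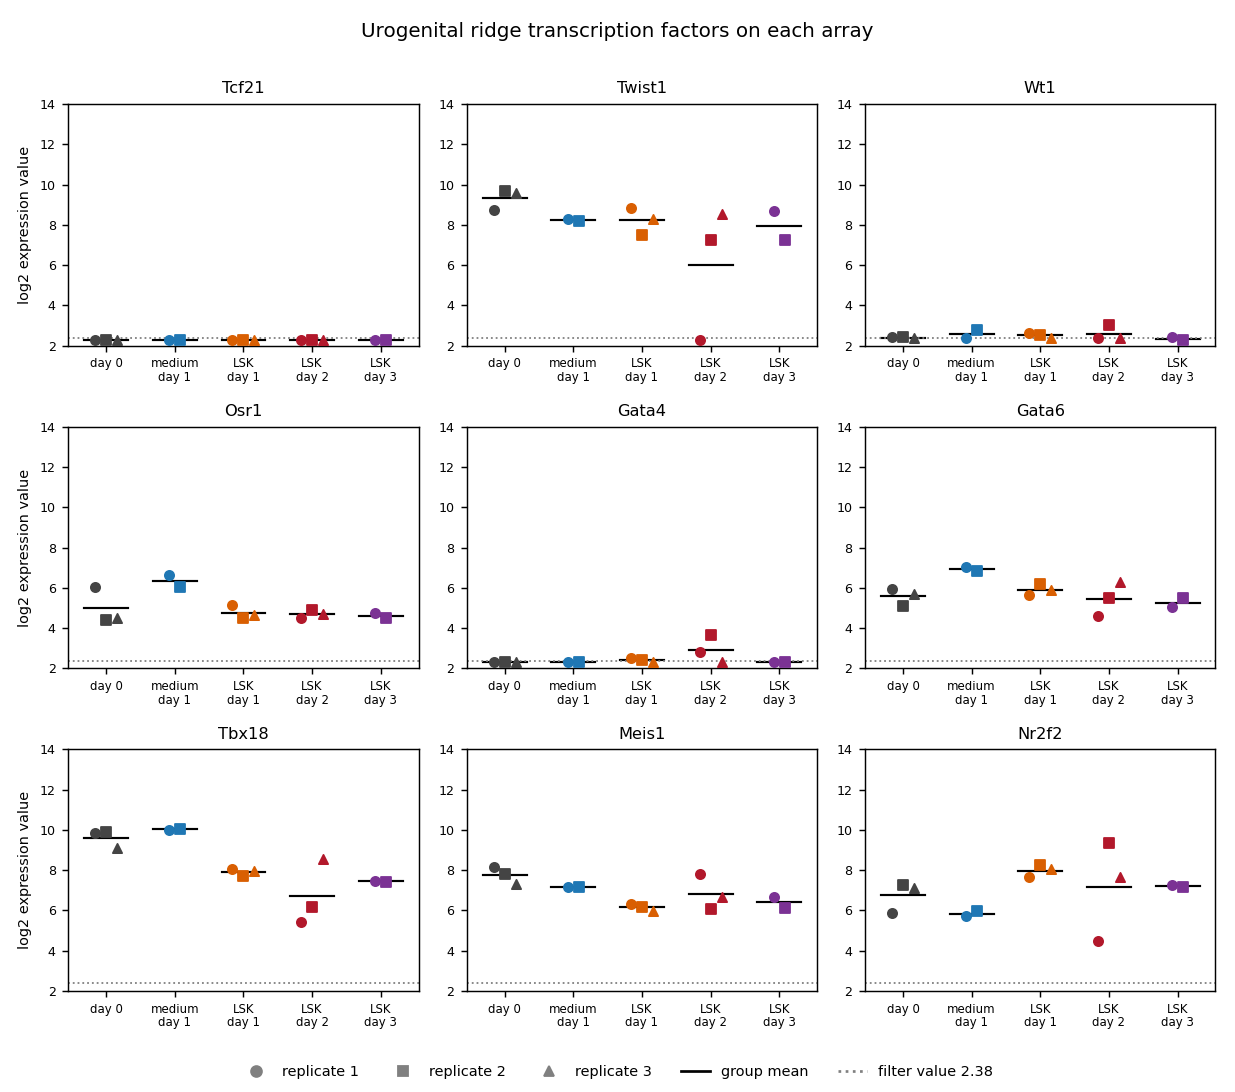
Log2 expression value (vertical axis) of each of the 9 factors on the 13 arrays, by group (horizontal axis), with 1 symbol per array by replicate number, a line at the group mean and a dotted line at the filter value of 2.38. Tcf21, Wt1 and Gata4 lie close to the filter value, and every co-culture array of Tbx18 lies below its 3 day 0 arrays.

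Tbx18, a T-box repressor of ureteric and other mesenchyme, was detected on all arrays. It read 9.85, 9.88 and 9.09 on the day 0 arrays, 10.00 and 10.06 in medium, 8.04, 7.71 and 7.96 at day 1 of co-culture, 5.45, 6.15 and 8.55 at day 2, and 7.45 and 7.43 at day 3. Every co-culture array lay below every day 0 and medium array, and both medium arrays lay just above day 0. The means were 9.60 ± 0.45 (SD, n = 3) at day 0 and 10.03 ± 0.05 (SD, n = 2) in medium, then 7.90 ± 0.17 (SD, n = 3), 6.72 ± 1.63 (SD, n = 3) and 7.44 ± 0.01 (SD, n = 2) over the 3 days of co-culture. The 3 days of co-culture cannot be ordered, since the day 2 arrays span the values of the other days.

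Against day 0 the log2 difference of Tbx18 was -1.70 ± 0.65 at day 1 (adjusted p = 0.214, limma), -2.89 ± 0.65 at day 2 (95% interval -4.34 to -1.43, adjusted p = 0.0529) and -2.16 ± 0.73 at day 3 (adjusted p = 0.214). Against medium it was -2.13 ± 0.73 at day 1 of co-culture (adjusted p = 0.125), and medium against day 0 gave 0.43 ± 0.73 (adjusted p = 1). None passed the threshold. The call turned on single arrays of day 2. Without array 1, which stood apart, the day 2 difference was -2.25 ± 0.58 and Tbx18 did not pass against day 0 on any day (adjusted p = 0.0699, 0.0787 and 0.0578 at days 1, 2 and 3, limma). Without array 3, which had the highest day 2 value of 8.55, the adjusted p was 0.0127 at day 1, 0.000209 at day 2, 0.0138 at day 3 and 0.00785 against medium (limma). In that fit 676, 3508, 345 and 1142 of 12160 genes passed in the same comparisons. Its day 2 group rested on array 2 and on array 1, which stood apart. A second Tbx18 probe set read 3.95, 2.99 and 3.04 at day 0, 5.41 and 4.86 in medium, and between 2.33 and 2.51 on the 8 co-culture arrays. It therefore ran the same way in all 5 comparisons, with its co-culture values at or near the filter.

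Meis1, a homeodomain partner of Hox and Pbx proteins, read 8.16, 7.81 and 7.33 at day 0 and 7.17 and 7.16 in medium. In co-culture it read 6.33, 6.17 and 5.97 at day 1, 7.80, 6.07 and 6.66 at day 2, and 6.66 and 6.14 at day 3. Days 1 and 3 lay wholly below day 0 and medium, whereas array 1 of day 2 fell among the day 0 values. The means were 7.77 ± 0.41 (SD, n = 3) at day 0, 7.16 ± 0.01 (SD, n = 2) in medium, 6.16 ± 0.18 (SD, n = 3) at day 1, 6.84 ± 0.88 (SD, n = 3) at day 2 and 6.40 ± 0.36 (SD, n = 2) at day 3.

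The log2 difference of Meis1 from day 0 was -1.61 ± 0.40 at day 1 (95% interval -2.52 to -0.70, adjusted p = 0.0733, limma), -0.92 ± 0.40 at day 2 (adjusted p = 0.184) and -1.37 ± 0.45 at day 3 (adjusted p = 0.206). At day 1 it was -1.0 ± 0.45 against medium (adjusted p = 0.243), and medium against day 0 gave -0.61 ± 0.45 (adjusted p = 0.845). The day 1 difference from day 0 passed when array 1 or array 2 of day 2 was left out, with adjusted p = 0.00967 and 0.0377. The Meis1 probe sets disagreed. A second one read 6.11, 7.09 and 6.12 at day 0, 3.79 and 2.55 in medium, 4.55, 4.39 and 5.40 at day 1, 3.79, 5.50 and 5.32 at day 2, and 7.38 and 6.39 at day 3. It had its lowest mean in medium and its highest at day 3, so its differences were 0.44 for day 3 against day 0 and 1.61 for day 1 against medium, opposite in sign to the tested probe set.

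**Figure D2:**
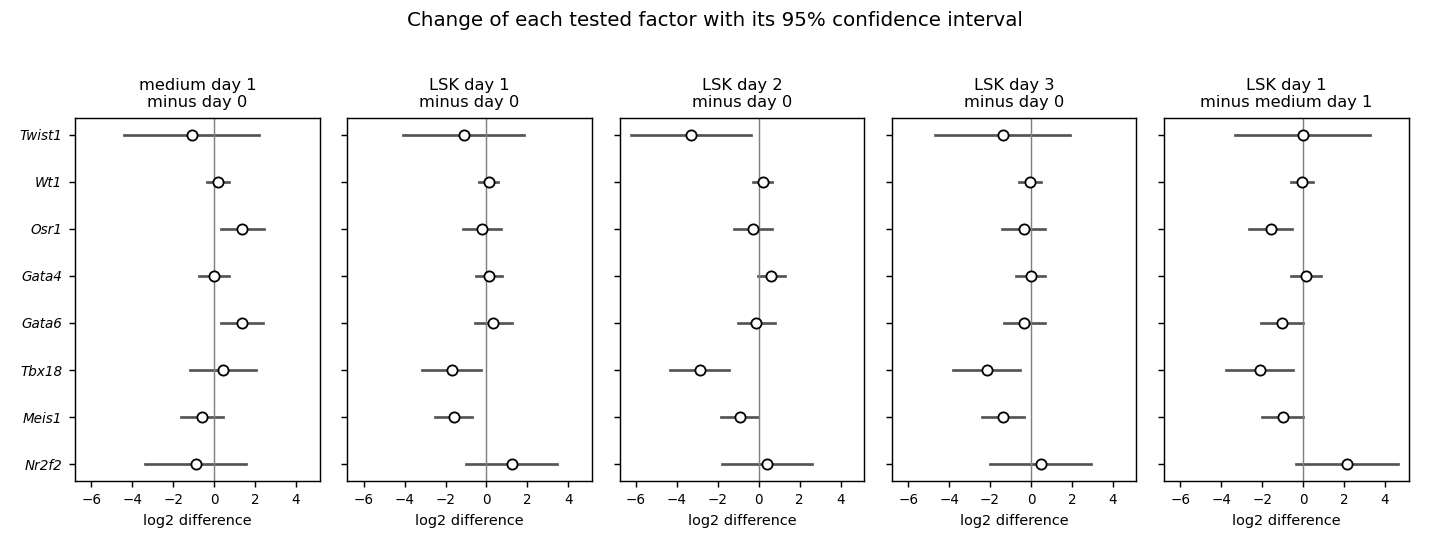
Log2 difference (horizontal axis) of the 8 tested factors in the 5 comparisons, with points at the fitted difference and bars for the 95% confidence interval; open points did not pass the threshold. The intervals of Tbx18 lie below 0 in all 4 comparisons of co-culture, and no point is filled. Gata4 passed the filter only through co-culture arrays.

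Gata6, a zinc finger factor of mesoderm and endoderm, read 5.94, 5.11 and 5.69 at day 0 and 7.03 and 6.86 in medium. In co-culture it read 5.64, 6.19 and 5.88 at day 1, 4.60, 5.48 and 6.29 at day 2, and 5.04 and 5.48 at day 3. Both medium arrays lay above the other 11 arrays, and each co-culture group overlapped day 0. Medium exceeded day 0 by 1.36 ± 0.45 on the log2 scale (adjusted p = 0.336, limma), and day 1 of co-culture differed from medium by -1.04 ± 0.45 (adjusted p = 0.226). A second Gata6 probe set past the filter never read above 2.88.

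Osr1, a zinc finger factor of the earliest intermediate mesoderm, had a similar ordering. It read 6.05, 4.42 and 4.49 at day 0, 6.65 and 6.06 in medium, 5.13, 4.50 and 4.67 at day 1 of co-culture, 4.48, 4.92 and 4.70 at day 2, and 4.76 and 4.48 at day 3. The medium arrays were again the highest, with array 1 of day 0 just under the lower of them, and the co-culture groups all overlapped day 0. Medium differed from day 0 by 1.37 ± 0.47 (adjusted p = 0.352, limma) and day 1 of co-culture from medium by -1.58 ± 0.47 (adjusted p = 0.0838). Without array 1 of day 0 both passed, at 1.90 ± 0.30 (adjusted p = 0.0327) and -1.58 ± 0.27 (adjusted p = 0.0185), and the differences of co-culture from day 0 became 0.32, 0.25 and 0.17 over the 3 days, from -0.22, -0.29 and -0.36 with it.

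Gata4, the GATA factor of the gonadal ridge, was at or below 2.32 on every day 0, medium and day 3 array. It reached 2.53 and 2.43 on 2 arrays of day 1, with 2.29 on the third, and 2.81, 3.64 and 2.29 at day 2. Values above the filter thus occurred on 4 of the 13 arrays, all at days 1 and 2 of co-culture. Gata4 passed the filter only through these arrays. Its fitted differences are drawn and counted with those of the other tested factors, but are not read as a result.

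Wt1, a zinc finger regulator of gonad and kidney, stayed close to the filter. It read 2.42, 2.41 and 2.37 at day 0, 2.37 and 2.79 in medium, 2.64, 2.51 and 2.37 at day 1 of co-culture, 2.36, 3.01 and 2.40 at day 2, and 2.41 and 2.28 at day 3. All 4 other groups overlapped day 0, and the differences ran from -0.05 to 0.19, each with a standard error of 0.21 or 0.24 (adjusted p from 0.552 to 1, limma). Its single probe set carries a suffix that Affymetrix uses for probes shared among transcripts.

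Tcf21, a basic helix-loop-helix factor of visceral mesenchyme, read 2.28 on 12 arrays and 2.29 on array 2 of day 2. Its other probe set read 2.28 on all 13. These are the lowest values in the table, so Tcf21 was not detected above the array's lower limit in any group, which does not show that the transcript is absent.

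Twist1, the other basic helix-loop-helix factor, was detected on all arrays but 1. It read 8.72, 9.68 and 9.60 at day 0, 8.30 and 8.18 in medium, 8.85, 7.52 and 8.29 at day 1 of co-culture, 2.28, 7.25 and 8.54 at day 2, and 8.68 and 7.26 at day 3. Except for array 1 of day 1, each later array was below all day 0 arrays. Array 1 of day 2 sat at the lowest value of the table, and it brought the day 2 mean to 6.03 ± 3.31 (SD, n = 3), compared with 7.90 ± 0.91 (SD, n = 2) for the other 2 arrays. The day 2 difference from day 0 was -3.31 ± 1.31 (adjusted p = 0.158, limma), and those of medium, day 1 and day 3 were -1.09 ± 1.47, -1.12 ± 1.31 and -1.37 ± 1.47. Without array 3 of day 2 the day 2 difference passed at -4.57 ± 1.21 (adjusted p = 0.0244, limma), a value that rests on the array at 2.28. In that fit 3508 of 12160 genes passed at day 2. Day 1 of co-culture and medium differed by -0.02 ± 1.47, with a 95% interval of -3.32 to 3.28.

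Nr2f2 (COUP-TFII), an orphan nuclear receptor of mesenchyme and veins, read 5.89, 7.25 and 7.11 at day 0 and 5.74 and 5.95 in medium. In co-culture it read 7.64, 8.25 and 8.05 at day 1, 4.46, 9.33 and 7.67 at day 2, and 7.25 and 7.19 at day 3. All day 1 arrays lay above day 0 and medium, whereas day 2 spanned both the lowest and the highest value of the gene. Day 1 exceeded day 0 by 1.23 ± 0.99 (adjusted p = 0.633, limma) and medium by 2.13 ± 1.10 (adjusted p = 0.32).

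The 3 other Nr2f2 probe sets past the filter did not all follow the tested one. At day 1 of co-culture against medium they differed by -1.28, -1.08 and 0.43, in order of falling mean level, and at day 1 against day 0 by 0.51, -0.59 and 1.28. The third of these had the sign of the tested probe set in both comparisons, and the second in neither. The direction of Nr2f2 thus depends on the probe set, and the second of these 3 repeats 1 value, 5.40, on 6 arrays.

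**Figure D3:**
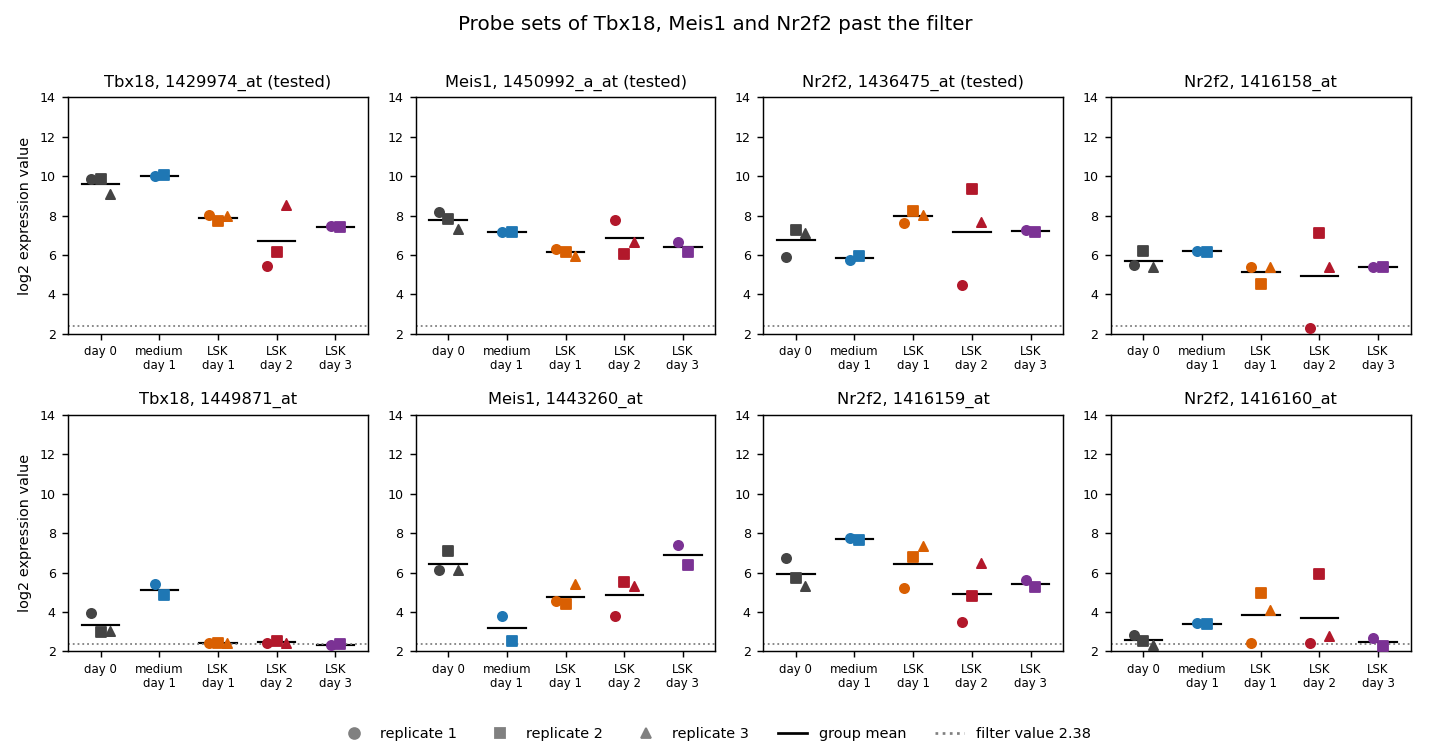
Log2 expression value (vertical axis) by group (horizontal axis) for the tested and the other probe sets of Tbx18, Meis1 and Nr2f2 past the filter, with symbols by replicate number, a line at each group mean and the filter value of 2.38 dotted. Both Tbx18 probe sets are lower in co-culture, the second Meis1 probe set is lowest in medium, and the Nr2f2 probe sets order the groups differently.

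Related regulators were read from lists taken from textbook roles. Among 14 tested partners and cofactors (E proteins, Id proteins, Pbx and Meis relatives and the GATA cofactors), none passed in any comparison. Zfpm2, the FOG2 cofactor of Gata4 and Gata6, read 7.99, 7.82 and 6.94 at day 0, 7.42 and 7.30 in medium, and 3.92, 2.97 and 3.27 at day 1 of co-culture. Its day 1 arrays lay below day 0 and medium, at -4.20 ± 0.97 against day 0 (adjusted p = 0.0627, limma) and -3.97 ± 1.09 against medium (adjusted p = 0.0678). At day 2 it read 2.97, 2.99 and 6.52, and at day 3 it read 2.75 and 5.49, so the arrays of these days disagreed. Pknox1, a homeodomain relative of Meis1, read 5.01, 3.70 and 3.63 at day 0 and 7.02 and 6.80 in medium. Its medium arrays were the highest of all 13, at 2.79 ± 0.61 above day 0 (adjusted p = 0.127, limma), and day 1 of co-culture differed from medium by -2.35 ± 0.61 (adjusted p = 0.0566).

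Of 11 tested paralogues (other GATA, T-box, Twist and COUP-TF genes), Gata3 passed in 1 comparison and no other gene in any. That comparison was day 1 of co-culture against medium, where 3.05% of all genes passed as lower. Gata3 read 6.04, 5.55 and 5.37 at day 0, 7.35 and 7.03 in medium and 5.37 on all 3 day 1 co-culture arrays, a difference of -1.82 ± 0.31 from medium (adjusted p = 0.0174, limma). Day 1 of co-culture against day 0 gave -0.28 ± 0.28 (adjusted p = 0.732) and medium against day 0 gave 1.53 ± 0.31 (adjusted p = 0.101), so the called difference was from a medium group above day 0. The exact value behind 5.37 recurs on 6 arrays, array 3 of day 0 among them, and day 3 read 3.97 and 5.03. The call was lost without either medium array or any 1 of the day 1 co-culture arrays, with adjusted p up to 0.191. None of 5 nephric and intermediate mesoderm regulators passed. Eya1, a transcriptional coactivator of kidney progenitors, read 10.05, 11.79 and 10.11 at day 0 and lower on all other arrays, with -4.40 ± 1.05 at day 2 (adjusted p = 0.0632, limma). Foxc1, a forkhead factor of nephric mesoderm, differed by -2.20 ± 1.08 at day 2 (adjusted p = 0.225), where array 1 read 3.41 and the others 8.11 and 8.41. Lhx1, Pax8, Sall1 and Six2 were at or below the filter on all day 0 arrays. The day 0 means of Foxd1, Foxc1 and Foxc2 were 9.11, 8.84 and 2.44.

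Cited2, a CBP/p300-binding coregulator that acts with Wt1 in adrenal and gonad formation, was the 1 of 7 tested gonadal ridge regulators to pass. It read 13.27, 12.51 and 11.64 at day 0, 12.73 and 12.78 in medium, 9.95, 8.60 and 9.62 at day 1 of co-culture, 9.91, 9.20 and 10.58 at day 2, and 10.21 and 9.97 at day 3. All co-culture arrays were below all day 0 and medium arrays. Cited2 fell by 3.08 ± 0.50 at day 1 (adjusted p = 0.0216, limma) and by 2.58 ± 0.50 at day 2 (adjusted p = 0.0378) against day 0, and by 3.37 ± 0.56 at day 1 against medium (adjusted p = 0.0157). The share of all genes passing as lower in these comparisons was 1.33%, 1.61% and 3.05%. The calls of Cited2 depended on single arrays. The day 1 call against day 0 was lost without array 1 or 2 of day 0, either medium array or any day 1 array (adjusted p up to 0.0915). That against medium was lost without either medium array or array 2 or 3 of day 1 (up to 0.156). The day 2 call was lost in 11 of the 13 fits that each left out 1 array, and kept without array 3 of day 0 or array 3 of day 2 (up to 0.129). Nr5a1, Nr0b1, Dmrt1 and Hand2, further regulators of this list, were at or below the filter on all day 0 arrays. The rest were above it there, with day 0 means of 7.58 for Six4, 7.16 for Emx2, 6.27 for Lhx9 and 5.73 for Cbx2. Those of Sox9 and Foxl2 were 3.86 and 2.88.

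Of 9 tested mesenchyme regulators, 2 passed as lower at day 1 against day 0, 1 at day 2 and 1 at day 1 against medium. Of all genes, 1.33%, 1.61% and 3.05% passed as lower in these comparisons. The median change of the 9 regulators was -1.33 at day 1 and -1.21 at day 2, against 0 and -0.29 for all genes. Prrx2 went the other way at day 1, by 1.81 ± 0.84 against day 0 (adjusted p = 0.311, limma). Against medium it differed by 2.28 ± 0.94 (adjusted p = 0.2, limma), and neither difference passed. Prrx1, a homeobox factor of connective tissue, read 13.14, 12.93 and 12.49 at day 0 and 12.51 and 12.54 in medium. In co-culture it read 11.26, 10.14 and 10.15 at day 1, 8.76, 9.11 and 10.77 at day 2, and 10.72 and 10.74 at day 3. It fell by 2.34 ± 0.50 at day 1 (adjusted p = 0.0496, limma) and by 3.31 ± 0.50 at day 2 (adjusted p = 0.0193) against day 0. Day 1 of co-culture against medium gave -2.01 ± 0.56 and did not pass (adjusted p = 0.0736, limma). Its day 1 call was lost without any 1 of the day 0, medium, day 1 or day 3 arrays (adjusted p up to 0.194), and its day 2 call without array 1 or 2 of day 0 or array 2 of day 2 (up to 0.0859).

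Zeb1, a zinc finger repressor of epithelial genes, read 10.39, 9.96 and 9.72 at day 0, 10.04 and 10.08 in medium, and 8.18, 8.32 and 7.90 at day 1 of co-culture. It fell by 1.89 ± 0.34 at day 1 against day 0 (adjusted p = 0.032, limma) and by 1.93 ± 0.39 against medium (adjusted p = 0.028). The call against day 0 was lost without any 1 of the day 0, medium or day 1 arrays (adjusted p up to 0.138), and that against medium without any 1 of the medium or day 1 arrays (up to 0.224). At day 2 it read 7.75, 9.08 and 8.94 and at day 3 it read 8.58 and 8.96.

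Among 4 tested coelomic epithelium and mesothelium markers, Krt19, a simple-epithelium keratin, passed. It read 4.49, 4.53 and 5.38 at day 0, 3.67 and 3.03 in medium, 2.28, 2.93 and 2.28 at day 1 of co-culture, 2.75, 2.30 and 2.75 at day 2, and 2.84 and 4.51 at day 3. Krt19 fell by 2.30 ± 0.44 at day 1 (adjusted p = 0.0376, limma) and by 2.20 ± 0.44 at day 2 (adjusted p = 0.042) against day 0. As lower, 1.33% and 1.61% of all genes passed in these comparisons. Arrays 1 and 3 of day 1 sat at the lowest value of the table and array 2 of day 2 below the filter, so the size of these falls is limited by the lower end of the scale. Both medium arrays also lay below all day 0 arrays, at -1.45 ± 0.49 (adjusted p = 0.35), and day 1 of co-culture against medium gave -0.85 ± 0.49 (adjusted p = 0.388). Both calls were lost without any 1 of the day 0, medium or day 1 arrays, and the day 2 call also without array 1 or 2 of day 2 (adjusted p up to 0.151 and 0.125). Krt8, Krt18, Upk3b, Upk1b, Lrrn4, Muc16, Cdh1 and Aldh1a2 were at or below the filter on all day 0 arrays, and Msln read 2.94 to 3.21 there.

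**Figure D4:**
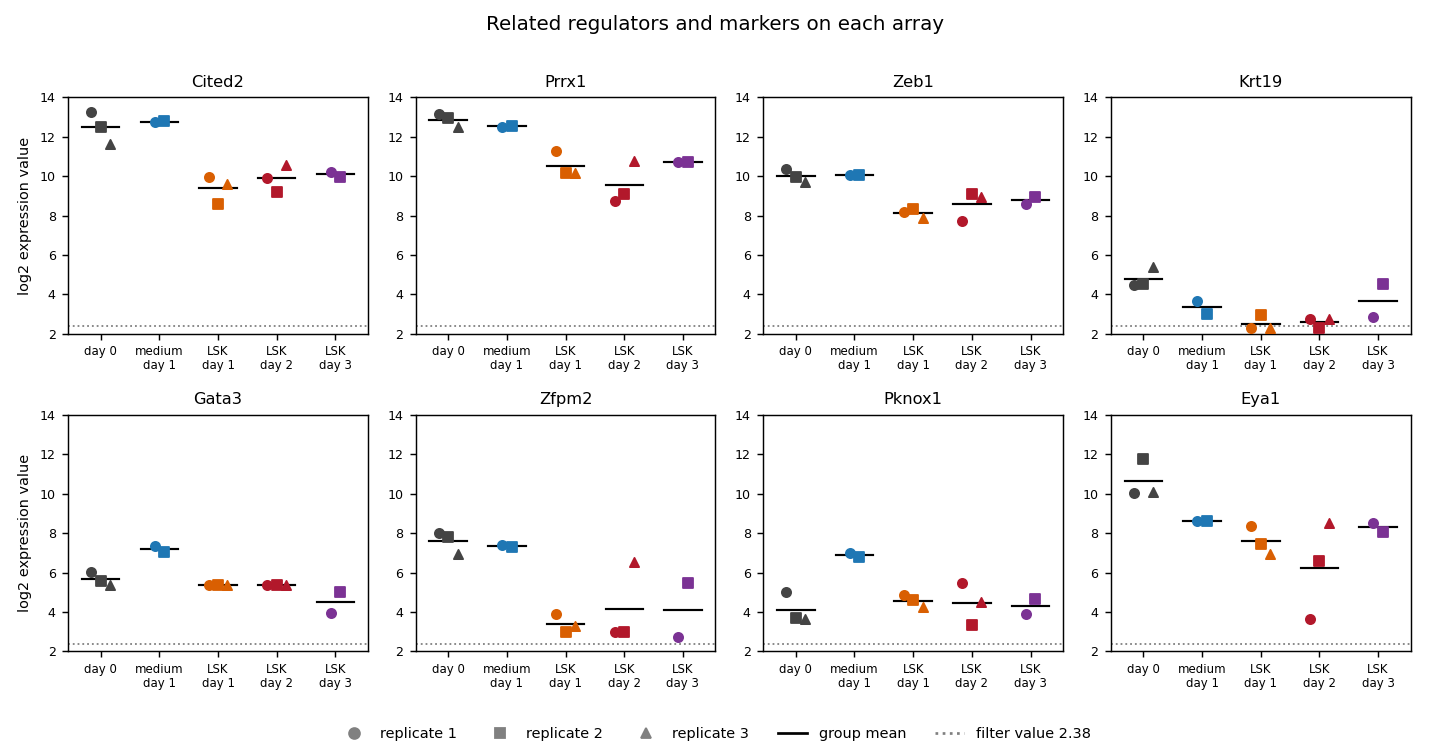
Log2 expression value (vertical axis) of 8 related genes on the 13 arrays by group (horizontal axis), with symbols by replicate number, a line at each group mean and the filter value of 2.38 dotted. Cited2, Prrx1 and Zeb1 are lower on all co-culture arrays than on all day 0 arrays, and Pknox1 and Gata3 are highest in medium.

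The labelled cell type was checked on marker lists. On each day 0 array 8 of 9 stromal markers exceeded the filter, with Thy1 the exception. No stromal marker passed in any comparison, but their median change was -0.63, -1.89 and -1.10 at days 1, 2 and 3 against day 0 and -1.05 at day 1 against medium, where that of all genes was 0, -0.29, 0 and 0. The tested markers did not all move together. Mean Pdgfrb was 11.76 at day 0 and 12.74 at day 1 of co-culture, and mean Postn 7.08 and 8.09. Col1a1, Col1a2, Col3a1, Pdgfra, Vim and Fn1 had lower means at day 1 than at day 0. At day 3 the mean of Vim was 13.07, against 12.72 at day 0. In the epithelial list Cdh1, Cldn4, Esrp1, Krt5 and Krt14 were at or below the filter on all day 0 arrays, and Epcam read 3.05 to 3.22. In the endothelial list Cdh5, Emcn and Pecam1 were at or below it there, and Esam read 2.44 to 2.48. Tek read 2.28 to 7.12 at day 0 and 2.28 on all other arrays. Kdr read 5.89 to 6.66 at day 0 and 10.40 and 10.42 in medium. For 12 blood cell genes the log2 of the summed level was 6.84 to 7.64 at day 0 and 6.69 to 6.87 in medium, then 9.10 to 11.04, 11.87 to 15.47 and 13.06 to 13.78 over the 3 days of co-culture. Ptprc, Kit, Ikzf1, Spi1, Elane and Coro1a were at or below the filter on all day 0 arrays. The other 6 (Laptm5, Lyz2, Mpo, Prtn3, Cd34 and Ctsg) were above it on each, with Laptm5 at 3.49 to 6.83 and Lyz2 at 4.57 to 4.82. Of the 10 blood genes tested, 1, 5 and 4 passed as higher at days 1, 2 and 3 against day 0, and 1 at day 1 against medium. Over all genes the share passing as higher was 0.827%, 0.639%, 0.352% and 2.16% in these comparisons. Ptprc and Ikzf1, among others, exceeded the filter only on co-culture arrays, so a test of them could only give a rise. The mean level of 12 spike-in probe sets for added bacterial RNA moved along with co-culture too, at 4.77 ± 1.27 (SD, n = 3) at day 0, 3.51 ± 0.10 (SD, n = 2) in medium, and 8.34 ± 1.39 (SD, n = 3), 9.02 ± 3.37 (SD, n = 3) and 10.67 ± 2.03 (SD, n = 2) over the 3 days. Blood cell genes, the median of the stromal markers and the spike-in level thus each moved with co-culture. The part of what they track in the lower co-culture values of Tbx18, Meis1, Cited2, Prrx1 and Zeb1 was not tested. In such bulk samples, fewer cells of a type and less RNA per cell cannot be told apart.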

How the data were processed

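Log2 expression values of 13 arrays were used as deposited. The submitters' processing notes name both RMA and GCRMA, and which of them made these values is not stated. The table has 45101 probe sets, of which 64 controls were left out. Gene symbols came from the platform annotation. A probe set entered if above 2.38 on at least 2 arrays, and the one with the highest mean stood for its gene. Choosing the probe set before the filter, which was also tried, gave the same probe sets for the 9 genes. All arrays entered 1 limma 3.58.1 fit under R 4.3.3 (lmFit, contrasts, eBayes) with a mean per group, tested on simulated data. The Benjamini-Hochberg adjustment ran over 12215 genes, with a threshold of 0.05. Figures used Python 3.11.15. The genes and lists were chosen with earlier results of these data known. Named genes were the 9 factors and, per list, up to 4 past the threshold, or, with none past it, up to 2 by value alone. The spike-in set was narrowed to 12 probe sets after first values were seen. Alternatives changed the filter, scaling, probe set, array weights, groups fitted, replicate block and arrays. Depth has no meaning here, and the number of arrays limits precision.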

Additional observations from a re-analysis of the deposited data

Results flagged for a closer look

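Gata6 arrays lay on opposite sides of the day 0 mean on days 1 and 3 of co-culture. All 3 day 1 arrays lay above the day 0 mean, by 0.32 on average (0.06 to 0.61), and both day 3 arrays lay below it, at -0.32 on average (-0.54 to -0.10). The difference between these days was not tested, and both days overlapped the day 0 arrays.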

How the results depend on the processing

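Over 20 alternatives, the 40 changes of the tested factors gave 800 recomputed values. Of these, 724 kept their sign and stayed short of the threshold. A further 52 passed it with the same sign, Gata4 at day 2 among them. Another 24 changed sign, none of them past the threshold before or after. In the order medium, day 1, day 2 and day 3 against day 0, then day 1 against medium, leaving out 1 array in turn gave 0 to 159, 9 to 1300, 26 to 3508, 4 to 940 and 6 to 2129 genes passing, and 0 to 1, 0 to 1, 0 to 3, 0 to 1 and 0 to 3 of the factors (the 3 at day 2 were Tbx18, Twist1 and Gata4, and Gata4 passed the filter only through co-culture arrays). The highest gene counts came without array 1 of day 2, or array 3 of day 2 for that day, and the lowest without array 2 of medium (both comparisons with it), array 2 of day 1 (day 1 against day 0) or array 2 of day 0 (days 2 and 3). The cause of these shifts was not tested.

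With no filter the gene counts were 162 at day 1 and 106 at day 2 against day 0. Quantile normalization gave 26, 295, 224, 64 and 688 of 12164 genes, with 1 factor at day 2 and 1 against medium (Tbx18 in both). The replicate block gave 8, 103, 28, 4 and 208 genes and no factor. Among the related genes it kept Cited2 at day 1, against day 0 (adjusted p = 0.0441, limma) and against medium (adjusted p = 0.0416). The calls of Zeb1, Prrx1, Krt19 and Gata3 and that of Cited2 at day 2 were lost with it (adjusted p from 0.0572 to 0.0948). Deviations from the group means correlated at -0.37 to 0.261 (median 0.00487) over 23 same-numbered pairs of arrays. Over 44 differently numbered pairs they correlated at -0.379 to 0.38 (median -0.00458). With 2 or 3 arrays per group, these values cannot exclude a pairing by replicate number. Fitting the compared groups only gave 83, 1782, 0, 26 and 4571 genes, with 2 factors (Tbx18, Meis1) at day 1 against day 0 and 5 (Gata6, Osr1, Tbx18, Meis1, Nr2f2) against medium. Array weights gave 3585, 3583, 2582, 167 and 6423 of 12215 genes, with 5, 4, 4 and 5 factors in all comparisons but day 3. Those at day 2 were Gata4, Tbx18, Meis1 and Nr2f2, and Gata4 passed the filter only through co-culture arrays. The mean of a gene's probe sets gave 52, 336, 292, 106 and 677 of 12215 genes. It gave 1, 1, 2 and 1 factors in all comparisons but day 3 (Meis1, Meis1, Tbx18 and Meis1, Tbx18). Leaving out array 1 of day 2 and array 2 of day 3 together, chosen after seeing the data, gave 405, 1746, 499, 640 and 2674 genes, and 1, 1 and 3 factors at day 1, at day 2 and against medium.

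Changes of sign were as follows, none of them passing. At day 2 against day 0, Gata6 became 0.59 and Osr1 0.36 after quantile normalization, Gata6 0.09 and Osr1 0.14 with array weights, and Gata6 0.30 without the 2 arrays. With the mean of probe sets, Nr2f2 became 0.56 in medium, -0.06 at day 2 and -0.10 at day 3, and Meis1 0.30 against medium. Twist1 against medium became 0.13 after quantile normalization, and Wt1 at day 3 became 0.01 without the 2 arrays. Leaving out 1 array in turn, Wt1 ran from -0.02 to 0.39 in medium, -0.02 to 0.31 at day 2, -0.12 to 0.01 at day 3 and -0.28 to 0.13 against medium. Osr1 ran from -0.50 to 0.32, -0.57 to 0.25 and -0.65 to 0.17 over the 3 days, Gata6 from -0.54 to 0.30 and Nr2f2 from -0.69 to 1.75 at day 2, and Twist1 from -0.34 to 0.33 against medium.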
